A study of Mus musculus with 7 samples.

Results

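A set of 9 genes that mark the olfactory bulb, the brain region in front of the cortex that receives the nerve of smell, was followed in RNA-seq libraries of brain cortex from APP/PS1 mice. The genes were Eomes, Tbx21, Cdhr1, Th, Doc2g, Shisa3, Sp8, Pax6 and Barhl2, and all were present among the 23413 gene symbols counted. They were chosen by name, after it was known from earlier results of these libraries that olfactory bulb genes were high in 1 control library, so the levels of the 9 genes by library and by diet are given as a description. The p-values printed for single members come from the fit over all genes and are not independent of that choice. The APP/PS1 line, B6.Cg-Tg(APPswe,PSEN1dE9)85Dbo/Mmjax, carries a mutant amyloid precursor protein and a mutant presenilin 1, each driven by the mouse prion protein promoter, and every mouse here carried these transgenes, so no library came from a wild-type brain. From 6 months of age the mice received for 7 months either the control diet (CD, n = 4, called SD in the sample labels), with 74% of its energy as carbohydrate, 10% as protein and 16% as fat, or the ketogenic diet (KD, n = 3), with under 0.5% as carbohydrate, 10% as protein and 90% as fat. The tissue was taken at 13 months of age. Mice of both sexes were used in the study, and the sex of each library is not analysed here.

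In the olfactory bulb, sensory axons end on the dendrites of the projection neurons, the mitral and tufted cells, which pass the signal on to olfactory cortex. Local interneurons, among them dopaminergic cells around the glomeruli and the granule cells, shape that signal and are renewed in adult life by neuroblasts that migrate in from the wall of the lateral ventricle. The neocortex itself does not hold mitral or tufted cells. Eomes and Tbx21 encode T-box transcription factors of mitral and tufted cells, and Cdhr1 and Doc2g are further markers of these cells. Th encodes tyrosine hydroxylase, the rate-limiting enzyme of dopamine synthesis, and Sp8 and Pax6 encode transcription factors of bulb interneurons.

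The libraries held 22272883 to 36614954 counts. A value of 3 counts, used here as the floor, stood for 0.0819 to 0.135 CPM (CPM, the count scaled to the library total). Libraries are named by diet and replicate number. No pair of replicates agreed within counting noise (chi-square divided by the number of genes was 16.1 or more), so all 7 were kept as separate samples. CD replicate 4 and KD replicate 3 stood apart from the other libraries in these genes, and the diet comparison of the members is given with and without them. The labelled tissue was checked by 13 genes of neocortical excitatory neurons, among them Rorb and Tbr1, and none was at 0 in any library. Their summed level was 864 CPM in CD replicate 4 and 788 CPM in KD replicate 3, against 1054 to 1290 CPM in the other 5 libraries. The genes did not all go with the sum in CD replicate 4. Rorb had 55.1 CPM there and 68.5 to 215 CPM elsewhere. By contrast, 2 of the 13, Neurod6 and Fezf2, had their highest level in CD replicate 4.

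The sequences just upstream of 4 members are shown first because these genes carry the patterns described below. Eomes and Cdhr1 had the greatest differences between libraries, and Th and Shisa3 were lower in every KD library than in every CD library. Each sequence is the 250 bases before the RefSeq transcription start (build GRCm38.p6, the same assembly as mm10), on the strand of the gene, and the last base lies next to the start. Capitals mark any match, on either strand, to the cyclic AMP response element TGACGTCA, the homeodomain core TAATTA, the T-box core AGGTGT, the GC box GGGCGG and the TATA box TATAAA.
Eomes, chr9:118477939-118478188, plus strand: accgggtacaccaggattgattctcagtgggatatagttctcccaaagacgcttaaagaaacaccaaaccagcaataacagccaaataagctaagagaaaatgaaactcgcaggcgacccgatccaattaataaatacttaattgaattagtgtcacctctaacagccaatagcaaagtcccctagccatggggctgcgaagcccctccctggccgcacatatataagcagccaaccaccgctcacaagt
Cdhr1, chr14:37098348-37098597, minus strand: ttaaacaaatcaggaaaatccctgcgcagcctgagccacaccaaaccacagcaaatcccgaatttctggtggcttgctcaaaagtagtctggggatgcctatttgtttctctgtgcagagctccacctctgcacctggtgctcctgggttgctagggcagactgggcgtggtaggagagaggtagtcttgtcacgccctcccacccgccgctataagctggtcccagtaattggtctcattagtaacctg
Th, chr7:142899996-142900245, minus strand: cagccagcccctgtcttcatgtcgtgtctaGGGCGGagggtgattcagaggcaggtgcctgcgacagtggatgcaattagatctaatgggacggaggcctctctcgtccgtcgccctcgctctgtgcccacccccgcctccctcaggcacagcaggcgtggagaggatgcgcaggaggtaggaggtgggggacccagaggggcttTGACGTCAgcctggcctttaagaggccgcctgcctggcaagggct
Shisa3, chr5:67607633-67607882, plus strand: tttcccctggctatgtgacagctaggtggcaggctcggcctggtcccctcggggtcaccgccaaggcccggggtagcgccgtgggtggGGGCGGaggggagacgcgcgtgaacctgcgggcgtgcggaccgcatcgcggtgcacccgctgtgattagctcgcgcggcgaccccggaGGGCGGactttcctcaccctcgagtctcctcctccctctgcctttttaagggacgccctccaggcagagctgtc

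The Th sequence held the cyclic AMP response element 45 bases before the start and a GC box 220 bases before it. The Shisa3 sequence held GC boxes at 162 and 74 bases before the start. None of the 5 motifs was found in the windows of Eomes and Cdhr1. RefSeq gave 12 such windows for the 9 members. The response element was present in 2 of the 12 (Th and Pax6), against 1.55% of the 32851 windows of all genes. The GC box was present in 5 of the 12 and in 32.7% of all windows. The homeodomain core was present in 1 window of Sp8 (4.84% of all windows), the T-box core in that of Doc2g (11.8%) and the TATA box in 1 window of Sp8 (12.4%). A match is only a match of letters.

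The 9 genes together summed to 97.5 CPM in CD replicate 4, to 33.8 CPM in KD replicate 3 and to 15.5 to 21.0 CPM in the other 5 libraries. Of the 9, 8 had their highest level in CD replicate 4, and the ninth, Barhl2, had its highest level in KD replicate 3. On the log2(CPM + 0.1) scale, the median over the members of the ratio of CD replicate 4 to the median of the other libraries was 2.67. Over the 20332 genes with a count in any library this median was 0.05, and 6.09% of them had a ratio above 1, against 8 of the 9 members. The member not above 1 was Pax6 (0.54). Barhl2 was above 1 (1.90) from 10 counts in CD replicate 4, and its ratio was 0.35 with a pseudocount of 1 CPM. These values show the property for which the genes were picked. In RNA from whole tissue, more cells of a type and more RNA per cell cannot be told apart.

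**Figure D1:**
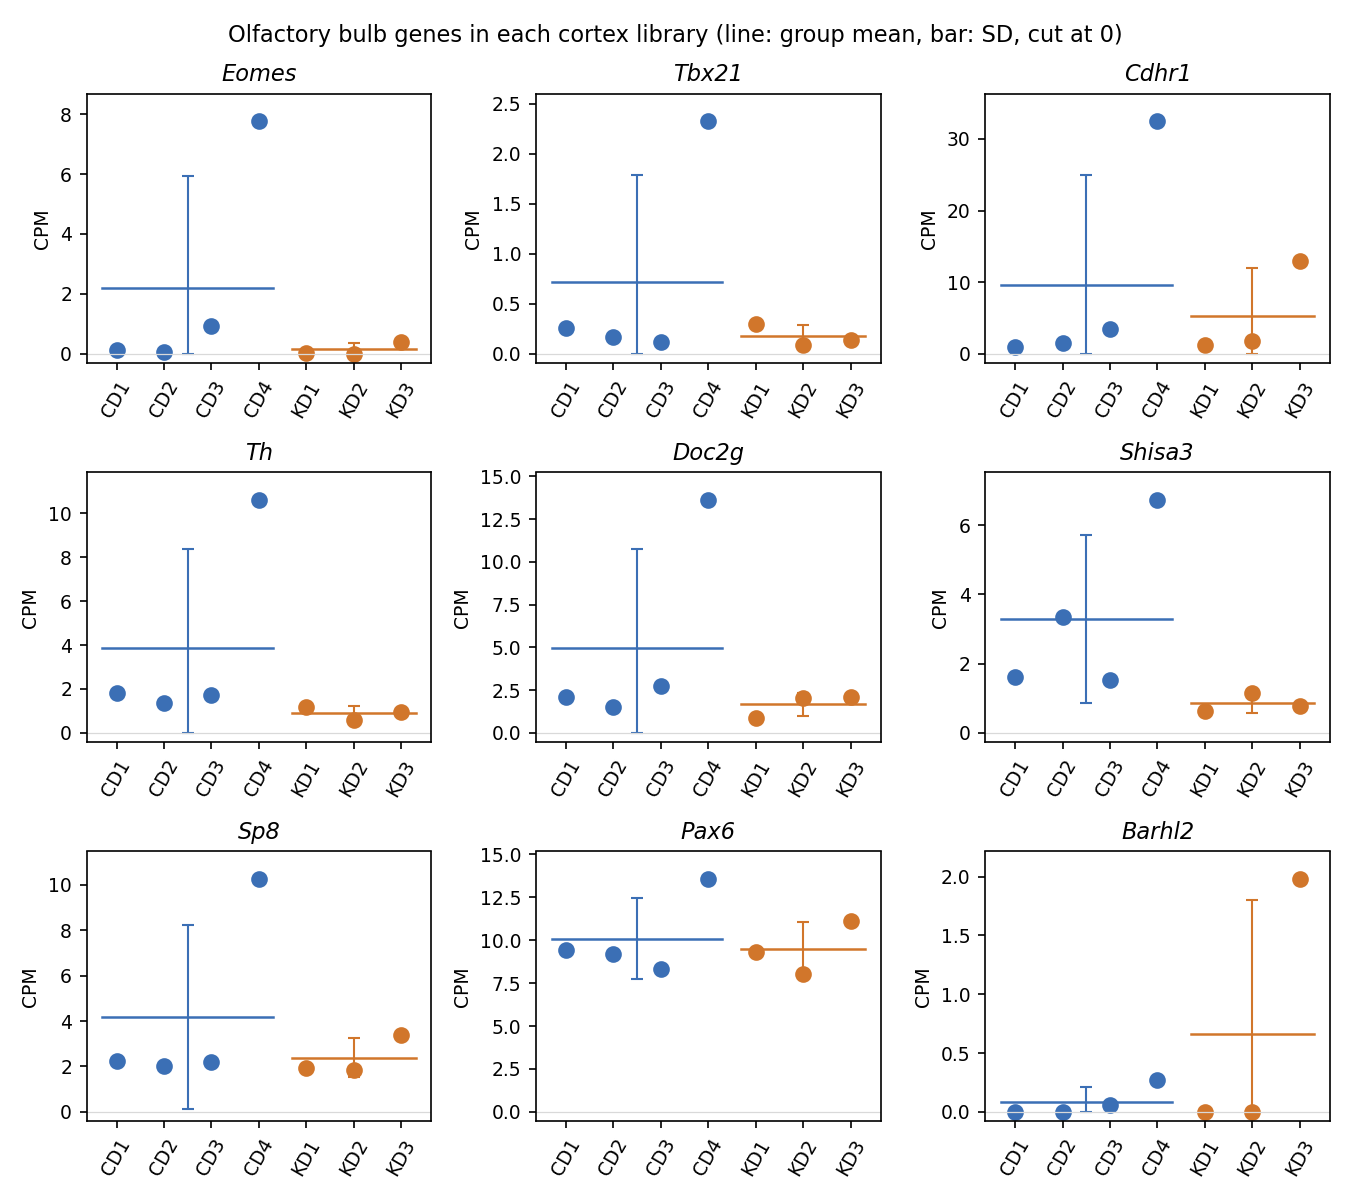
Level of each of the 9 genes (y axis, CPM) in the 4 CD (blue) and 3 KD (orange) libraries (x axis). Points are libraries, lines are group means and bars are SD, cut at 0. CD replicate 4 is the highest point for 8 genes and KD replicate 3 for Barhl2, with 1.98 CPM.

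Among the transcription factors of the projection neurons, Eomes (ENSMUSG00000032446.14, chromosome 9 from 118478212 to 118486132, plus strand) had 0.114, 0.0669, 0.915 and 7.76 CPM in CD replicates 1 to 4 and 0.0428, 0 and 0.404 CPM in KD replicates 1 to 3. These values rest on 4, 2, 30 and 284 counts in CD and on 1, 0 and 9 counts in KD, and the 0 allows up to 0.0882 CPM. CD replicate 4 was 8.48-fold above CD replicate 3, the next library. Outside CD replicates 3 and 4 and KD replicate 3, Eomes was close to the floor.

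Tbx21 (ENSMUSG00000001444.2, chromosome 11 from 97098071 to 97115331, minus strand) had 0.256, 0.167, 0.122 and 2.32 CPM in CD and 0.299, 0.0882 and 0.135 CPM in KD. It was counted 85 times in CD replicate 4 and 3 to 9 times elsewhere, a 7.75-fold excess over KD replicate 1, the next library. Unlike Eomes, Tbx21 was not raised in CD replicate 3 or KD replicate 3. Eomes and Tbx21 are also used by T cells and natural killer cells. The 10 T and NK cell genes examined summed to 1.23 CPM in CD replicate 4 and to 0.404 to 0.519 CPM in the other libraries. Of the 10, 5 had their highest level in CD replicate 4. Among these was Cd3e, a chain of the T cell receptor complex, at 8 counts there and 0 to 2 elsewhere. Ncr1 and Gzma were at 0 counts in CD replicate 4, and Klrb1c was at 2, against 0 to 6 elsewhere. No gene of this list had more than 16 counts in any library.

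Cdhr1 (ENSMUSG00000021803.10, chromosome 14 from 37077857 to 37098347, minus strand), a cadherin-related protein of mitral and tufted cells and of photoreceptors, had 0.997, 1.54, 3.42 and 32.4 CPM in CD and 1.28, 1.76 and 12.9 CPM in KD. CD replicate 4 was 2.51-fold above KD replicate 3, the next library, and KD replicate 3 was in turn well above the other 5. The CD and KD ranges overlapped.

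Doc2g (ENSMUSG00000024871.11, chromosome 19 from 4003313 to 4007005, plus strand), a protein with C2 domains of the kind that bind membranes, had 2.08, 1.5, 2.75 and 13.6 CPM in CD and 0.898, 2.03 and 2.11 CPM in KD. Only CD replicate 4 stood out, 4.95-fold above CD replicate 3. Doc2g shares its locus with the annotated gene Gm49405 on the same strand, so its reads may not all be its own.

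Shisa3 (ENSMUSG00000050010.8, chromosome 5 from 67607882 to 67623552, plus strand), a protein that holds back Wnt and FGF receptors inside the cell, had 1.62, 3.34, 1.53 and 6.72 CPM in CD and 0.641, 1.15 and 0.763 CPM in KD. CD replicate 4 was 2.01-fold above CD replicate 2, a smaller excess than for Eomes or Tbx21. Every KD library lay below every CD library. Atp8a1 lies on the opposite strand over the same stretch, and the strand setting of the counting is not given in the sources used here.

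Barhl2 (ENSMUSG00000034384.11, chromosome 5 from 106452523 to 106458166, minus strand), a homeodomain transcription factor, went another way. It had 0, 0, 0.061 and 0.273 CPM in CD and 0, 0 and 1.98 CPM in KD, from 2 and 10 counts in CD replicates 3 and 4 and 44 counts in KD replicate 3. KD replicate 3 was 7.23-fold above CD replicate 4. A count of 0 allows up to 0.0855, 0.10, 0.128 and 0.0882 CPM in CD replicates 1 and 2 and KD replicates 1 and 2.

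Of the interneuron genes, Th (ENSMUSG00000000214.11, chromosome 7 from 142892752 to 142931128, minus strand) had 1.80, 1.37, 1.71 and 10.6 CPM in CD and 1.2, 0.588 and 0.943 CPM in KD. CD replicate 4 was 5.90-fold above CD replicate 1, and the 3 KD libraries were the lowest of the 7. Th also marks midbrain dopamine neurons and noradrenergic neurons. Pitx3, En1 and Foxa2 of the midbrain list were at 0 counts in all 7 libraries. Dbh, which turns dopamine into noradrenaline, reached 6 counts at most. Slc6a3, the dopamine transporter, had 63 counts (1.72 CPM) in CD replicate 4, 26 counts (1.17 CPM) in KD replicate 3 and 24 counts (0.732 CPM) in CD replicate 3, against 1 to 8 counts in the other libraries.

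Sp8 (ENSMUSG00000048562.7, chromosome 12 from 118846329 to 118852576, plus strand) had 2.25, 2.01, 2.20 and 10.2 CPM in CD and 1.92, 1.85 and 3.37 CPM in KD. Among the 5 libraries other than CD replicate 4 and KD replicate 3 its highest value was 1.22-fold its lowest. The same quotient was 1.17 for Pax6, between 3.06 and 3.42 for Th, Doc2g, Tbx21 and Cdhr1, and 5.21 for Shisa3.

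Pax6 (ENSMUSG00000027168.21, chromosome 2 from 105668900 to 105697364, plus strand) had 9.40, 9.20, 8.30 and 13.5 CPM in CD and 9.32, 8.02 and 11.1 CPM in KD. CD replicate 4 and KD replicate 3 were the highest libraries, but CD replicate 4 was only 1.46-fold above the median of the others, the smallest excess among the members. Pax6 is also expressed by astrocytes in adult cortex. The antisense gene Pax6os1 overlaps Pax6 and is counted separately in the files.

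Levels of different genes were compared only after division by exon length (RPKM, here CPM per kb of the merged GENCODE M21 exons). By the median over the 7 libraries the order was Pax6 (0.797 RPKM), Doc2g (0.685), Th (0.580), Sp8 (0.482), Cdhr1 (0.407), Shisa3 (0.321), Tbx21 (0.0672), Eomes (0.0274) and Barhl2 (0). The ranges over libraries overlapped for every pair of neighbours in this order. Within libraries, Shisa3 was above Tbx21 in 7 of 7, while the other pairs of neighbours kept their order in only 3 to 5 of 7. In CD replicate 4 alone the highest of the 9 was Cdhr1, with 7.49 RPKM.

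The comparison of the diets asks whether KD changed these transcripts in cortex. Of the 9 members, 7 passed the filter on low counts and were tested, and Tbx21 and Barhl2 did not. With edgeR's quasi-likelihood test over 15881 genes, all 7 had negative log2 fold changes for KD minus CD, with a median of -1.53, beside a median of -0.0033 over all tested genes. The log2 fold change was -3.97 for Eomes (standard error 1.82), -2.07 for Th (0.79), -1.91 for Shisa3 (0.57), -1.53 for Doc2g (0.78), -0.84 for Cdhr1 (1.27), -0.79 for Sp8 (0.62) and -0.081 for Pax6 (0.19). Eomes passed the filter through CD replicates 3 and 4 and KD replicate 3 alone. Since CD replicate 4 was known to be high when the genes were chosen, these signs are not evidence of an effect of diet.

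Shisa3 alone of the 7 had an unadjusted p of 0.01 or less, where 0.321% of all tested genes did (0.17% with the lower level in KD), and 1 of 7 is read no further. Leaving out CD replicate 2, CD replicate 4 or any single KD library took Shisa3 past that limit. Below an unadjusted p of 0.05 there were 2 members, Shisa3 and Th, both lower in KD, where 3.19% of all tested genes fell below it and 1.52% did so with the lower level in KD. After Benjamini-Hochberg adjustment the quasi-likelihood test of edgeR called 0 genes at 0.05, members included, while 506 passed without adjustment. DESeq2 likewise called 0 genes after adjustment and 585 without it, but it gave no p-value for Th and Cdhr1. The likelihood-ratio test of edgeR called 1 after adjustment, which was not a member, and 498 without it. The KD range lay wholly below the CD range for 2 of the 9 members, Th and Shisa3, and for 2.56% of all tested genes, and it lay above for 0 members and 1.64% of all tested genes.

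Over all 4 CD libraries Th had 3.87 ± 4.49 CPM (SD, n = 4) and Shisa3 3.3 ± 2.43 CPM (SD, n = 4), and both spreads came mainly from CD replicate 4. Without that library, CD had 1.62 ± 0.224 CPM of Th (SD, n = 3) and KD had 0.909 ± 0.306 CPM (SD, n = 3). The log2 fold change of Th was then -0.86 (standard error 0.35). Shisa3 had 2.16 ± 1.02 CPM (SD, n = 3) in CD without replicate 4 and 0.85 ± 0.263 CPM (SD, n = 3) in KD, with a log2 fold change of -1.33 (0.42). For both genes the KD libraries stayed below all remaining CD libraries, as they did for 3.87% of all tested genes. The values of the other tested members moved towards 0 or changed sign. Without CD replicate 4, Doc2g had a log2 fold change of -0.33 (0.39), Sp8 of 0.13 (0.29), Pax6 of 0.071 (0.16) and Cdhr1 of 1.39 (0.92), and Eomes no longer passed the filter. The median over the 6 members then tested was -0.13. Barhl2, which was not tested, had 0.0203 ± 0.0352 CPM (SD, n = 3) in CD without replicate 4 and 0.658 ± 1.14 CPM (SD, n = 3) in KD, where the whole level came from replicate 3.

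Without KD replicate 3, the log2 fold change was -2.59 for Cdhr1 (1.53), -2.09 for Th (1.0), -1.91 for Tbx21 (1.43), -1.83 for Shisa3 (0.70), -1.70 for Doc2g (0.98), -1.11 for Sp8 (0.75) and -0.20 for Pax6 (0.21). Tbx21 passed the filter in this fit with 85 counts in CD replicate 4 and 3 to 9 in the other libraries. Its value therefore rests on the library for which the genes were picked. Eomes then had 1 and 0 counts in the KD libraries, at or under the floor, and its fitted value is not used. With that library left out, the KD range lay below the CD range for 4 of the 9 members, Eomes and Sp8 besides Th and Shisa3, and for 7.15% of all tested genes. The separation of Eomes there is between 0 or 1 count in KD and 2 counts in CD replicate 2, all under the floor.

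**Figure D2:**
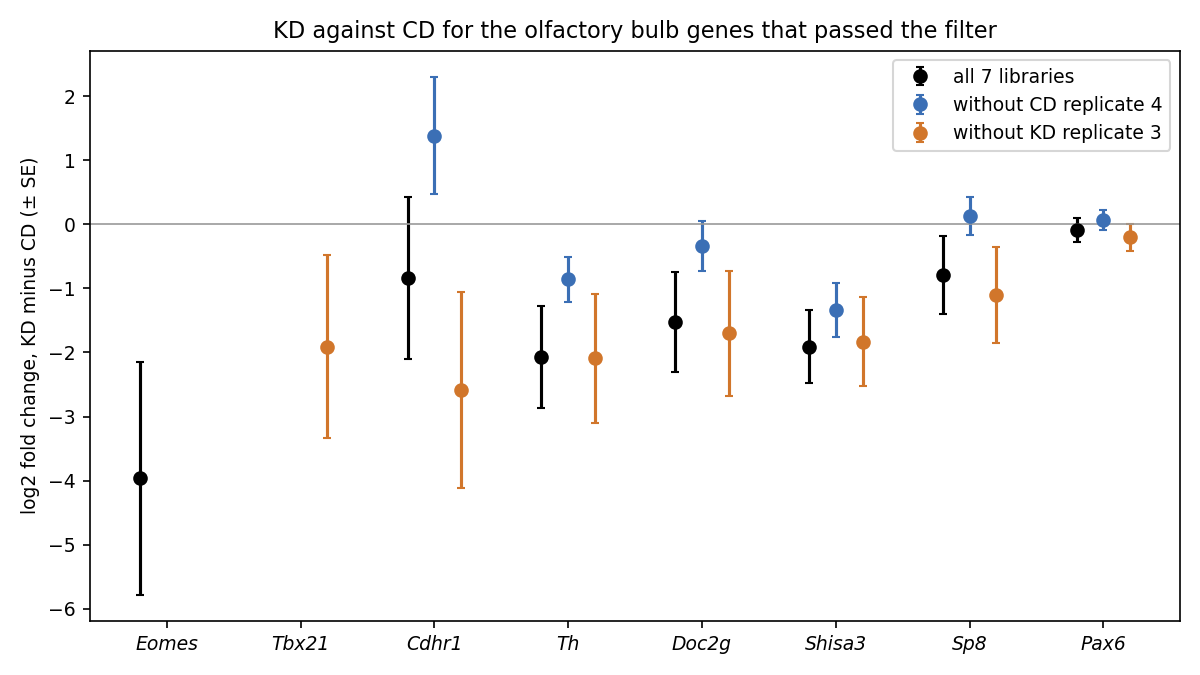
Log2 fold change, KD minus CD (y axis, points, with bars of 1 standard error), of the members that passed the filter in at least 1 of the fits (x axis), in all 7 libraries (black), without CD replicate 4 (blue) and without KD replicate 3 (orange, Eomes not drawn). Th and Shisa3 are below 0 in all 3 fits, at -0.86 and -1.33 without CD replicate 4, while Cdhr1 moves to 1.39.

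To see how far other genes of the bulb went with the members, lists of such genes were drawn up from knowledge of the bulb. Earlier results of these data were known by then, so the counts over these lists are descriptions. Of 9 further mitral and tufted cell genes, 4 were above 1 in the log2 ratio of CD replicate 4 to the median of the other libraries (Nmb, A230065H16Rik, Piezo2 and Reln), where 6.09% of all genes were. Nmb, a bombesin-like neuropeptide, had the highest ratio (1.72) and Cck, the peptide cholecystokinin, which the cortex makes in quantity, the lowest (-0.14). In KD replicate 3 as well, 4 of the 9 were above 1, where 4.86% of all genes were. Among these 4 was Lhx5, with only 5 counts there. None of the 9 had its highest level in CD replicate 4. Reln, the secreted protein reelin, had 306 CPM in CD replicate 4 and 311 CPM in KD replicate 3, against 125 to 172 CPM elsewhere.

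Of 24 further interneuron genes, 6 had a log2 ratio above 1 in CD replicate 4, where 6.09% of all genes did. They were Scgn, Trh, Nr4a2, Calb2, Meis2 and Etv1. Of the 24, 11 had their highest level in CD replicate 4. In KD replicate 3 the number above 1 was also 6, where 4.86% of all genes were, and 10 had their highest level there. The share of all genes with their highest level in either library was not counted, so the 11 and the 10 are read no further. Scgn, the calcium-binding protein secretagogin, had 2.59 CPM in CD replicate 4, 1.21 CPM in KD replicate 3 and 0.10 to 0.763 CPM elsewhere, a log2 ratio of 2.95 and the highest of the list. Nr4a2, a nuclear receptor of dopamine neurons and of deep cortical neurons, had 103 CPM in CD replicate 4 and 63.3 CPM in KD replicate 2, against 7.91 to 18.8 CPM elsewhere. Calb2, the calcium-binding protein calretinin, had 34.1 CPM in CD replicate 4 and 49.2 CPM in KD replicate 3, against 6.76 to 9.64 CPM elsewhere. Trh, thyrotropin-releasing hormone, was higher in KD replicate 3 (44.1 CPM) than in CD replicate 4 (10.1 CPM). Penk, the opioid precursor proenkephalin, had the lowest ratio in CD replicate 4 (-1.50). The enzymes Ddc and Gch1, which act with Th in dopamine synthesis, had ratios of 0.28 and 0.010.

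Omp, the olfactory marker protein of mature olfactory sensory neurons, whose axons enter the bulb, had the highest log2 ratio in CD replicate 4 of the listed genes (5.44). It had 0.171, 0.167, 0.763 and 11.6 CPM in CD and 0.599, 0.147 and 0.135 CPM in KD, or 424 counts in CD replicate 4 and 3 to 25 elsewhere. CD replicate 4 was 15.2-fold above CD replicate 3. Ngfr, the p75 receptor of olfactory ensheathing glia and of some forebrain neurons, was 2.84-fold above the next library there. Frzb, a Wnt antagonist of ensheathing glia, was instead low in CD replicate 4, with a log2 ratio of -1.29. The 9 neuroblast and progenitor genes had a median ratio of 0.36 in CD replicate 4, with Top2a, a topoisomerase of dividing cells, lowest (-0.98). In KD replicate 3 their median was 0.97, with 4 of 9 above 1, where 4.86% of all genes were.

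**Figure D3:**
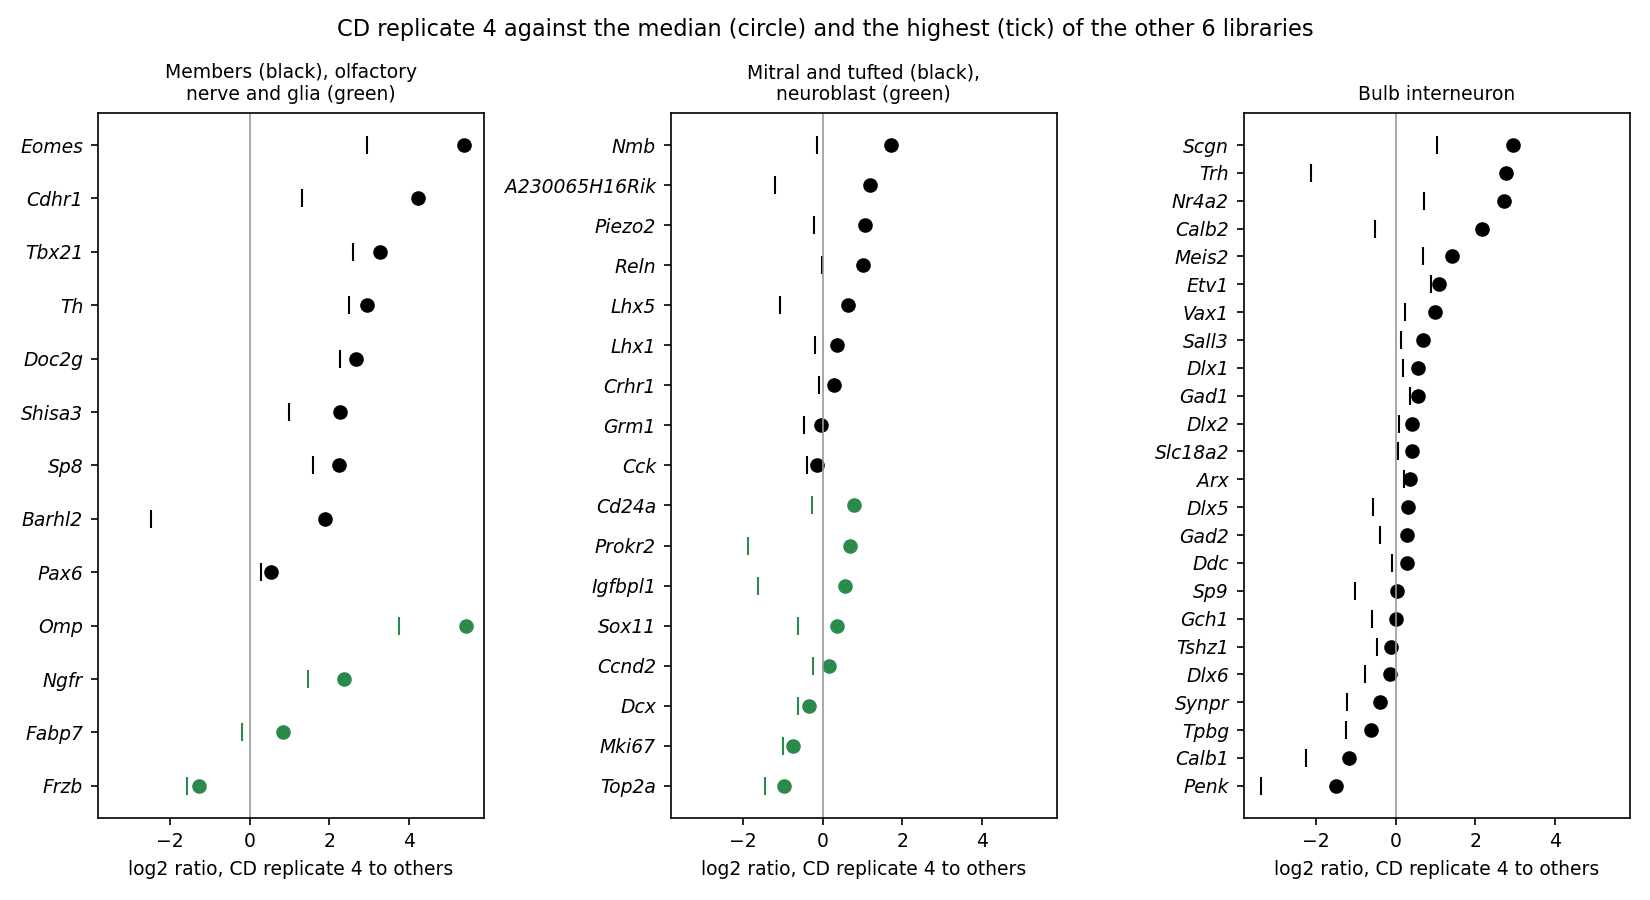
Log2 ratio on the CPM + 0.1 scale (x axis) of CD replicate 4 to the median (circles) and to the highest (ticks) of the other 6 libraries, for each member and the further bulb genes reported here (y axis). Omp (5.44) and Eomes (5.38) lie farthest to the right, and 6 of the 24 interneuron genes lie above 1, where 6.09% of all genes do.

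Tested for diet, 0 of the 30 tested genes of the mitral, tufted and interneuron lists passed after adjustment with the quasi-likelihood test of edgeR, and 0 had an unadjusted p of 0.01 or less. Below an unadjusted p of 0.05 there was 1, Gad1, the enzyme that makes GABA, with a log2 fold change of -0.37 (standard error 0.12), where 3.19% of all tested genes passed. Their median log2 fold change was 0.14, with 19 positive and 11 negative, and it was -0.039 without KD replicate 3. In the mitral and tufted list the values ran from -0.20 for Crhr1 to 0.82 for A230065H16Rik, and without KD replicate 3 these were 0.024 and -0.94. In the interneuron list they ran from -0.81 for Scgn to 2.06 for Trh, and without KD replicate 3 these were -2.11 and -1.98, so the sign of Trh turned on that library. In the neuroblast list the highest value was 1.32 for Igfbpl1, which was -0.30 without KD replicate 3. In the list of sensory axon and ensheathing glia genes values ran from -3.41 for Omp to 0.30 for Frzb. Without CD replicate 4, Omp no longer passed the filter, with 0.367 ± 0.343 CPM (SD, n = 3) in CD and 0.293 ± 0.264 CPM (SD, n = 3) in KD. In these lists, too, 0 genes passed after adjustment in the same test, and 0 fell below an unadjusted p of 0.05.

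Other gene lists also moved with CD replicate 4. The 6 meningeal fibroblast genes all had their highest level there, and summed to 294 CPM, against 138 CPM in KD replicate 3 and 42.6 to 80.6 CPM in the other libraries. The 5 thalamic and diencephalic genes summed to 191 CPM in CD replicate 4, to 121 CPM in KD replicate 3 and to 34.3 to 70.9 CPM elsewhere, mostly from Slc17a6, a vesicular glutamate transporter. The choroid plexus genes summed to 10.6 to 452 CPM in CD, with CD replicate 1 the highest, and to 25.7 to 48.1 CPM in KD. Ttr alone had 425 CPM in CD replicate 1. Taken by gene, 4 of the 5 choroid plexus genes had a log2 ratio above 1 in CD replicate 4, where 6.09% of all genes did. Their median ratio there was 1.18. The part of these tissues in the levels of the 9 members was not tested. The 7 striatal genes had a median log2 ratio of -0.57 in CD replicate 4 and of 0.67 in KD replicate 3, and the 5 ventral forebrain genes of -0.56 and 0.14. The 4 Cajal-Retzius genes, which share Reln and Lhx5 with the mitral and tufted list, had 0.57 and 1.36.

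**Figure D4:**
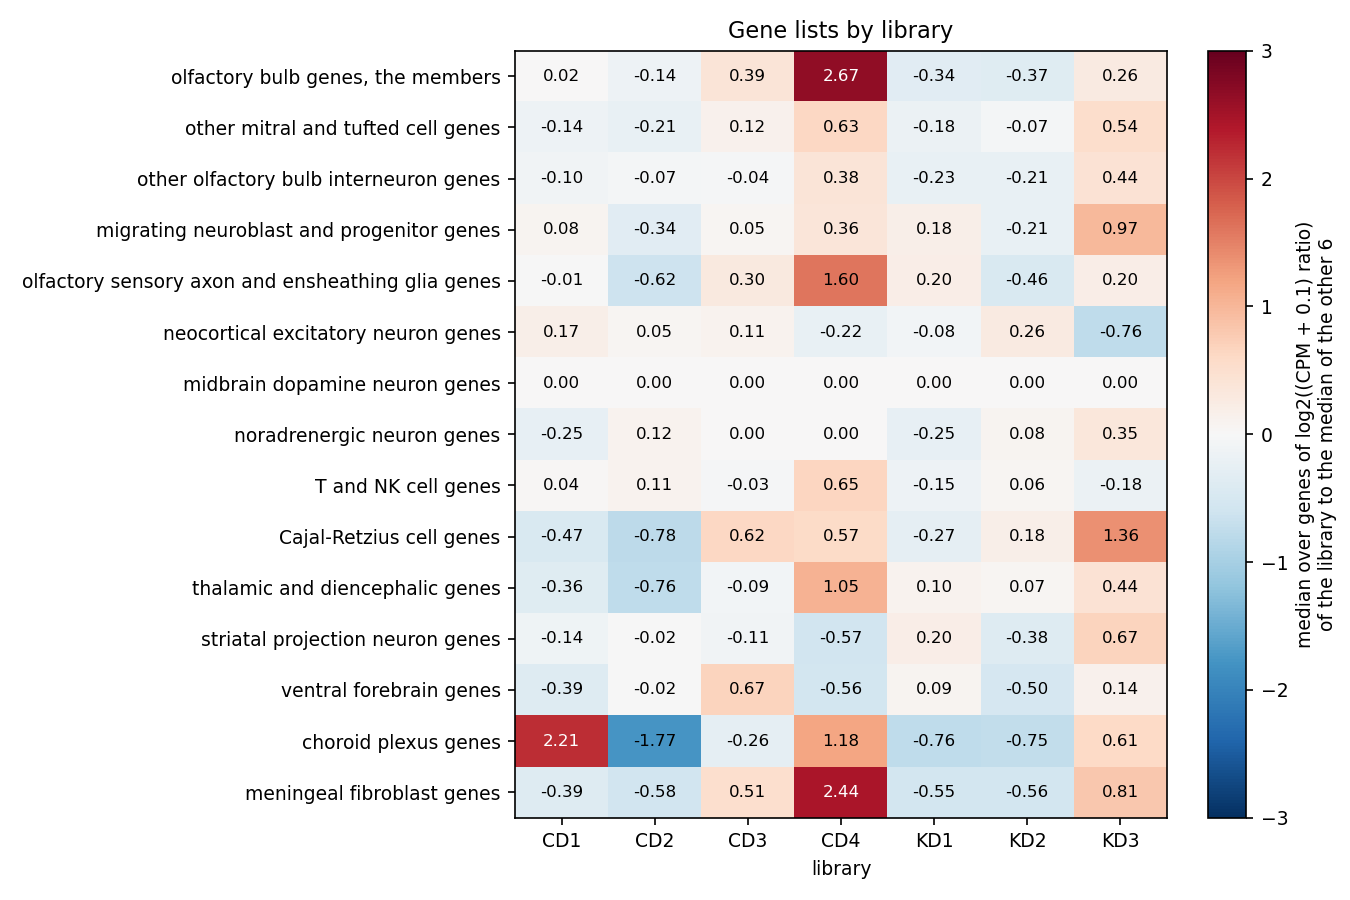
Median over each list (y axis) of the log2 ratio, on the CPM + 0.1 scale, of each library (x axis) to the median of the other 6, red for higher and blue for lower. The members (2.67) and the meningeal genes (2.44) have the highest medians in CD replicate 4, and the neocortical genes are at their lowest in KD replicate 3 (-0.76).

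The genes most like the mean profile of the members were sought among the 15874 other tested genes. The measure was the root mean square difference, over the 7 libraries, between log2(CPM + 0.1) of the gene and the mean of the members. Each gene was first centred on its median. The 12 closest, from 0.154 to 0.335 where the median gene was at 1.11, were Lum, Gjb2, Serping1, Slc6a20a, Crabp2, Slc13a4, Rasd1, Vwc2l, Aldh1a2, Cytl1, Gstm2 and Slc22a6. The closest, Lum, which encodes the matrix proteoglycan lumican and is in the meningeal list, had 2.54, 1.94, 3.63 and 19.1 CPM in CD and 2.14, 2.0 and 4.67 CPM in KD. Vwc2l had 118 CPM in CD replicate 4 and 11.2 to 21.0 CPM elsewhere, a 5.60-fold excess over the next library. None of the 12 was in the lists of bulb genes, so this profile over the libraries was not particular to such genes. Only Lum was in any of the lists examined. These lists are short, and the tissues in which the others of the 12 are made were not tested. Among the members, Sp8 was nearest to their mean (0.309) and Barhl2 farthest from it (1.39). After Sp8 the nearest was Doc2g (0.486), so the 12 genes are like the mean of the members rather than like each member.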

How the data were processed

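The 7 deposited files hold raw read counts per gene symbol. The authors isolated RNA from 10 mg of frozen cortex, made stranded total RNA libraries from 300 ng, sequenced them in 50-bp paired-end mode, aligned the reads to mm10 with STAR and took gene counts from its built-in HTSeq counting. Versions, annotation and strand setting are not given in the sources used here, so overlapping genes may share reads. The members and gene lists were chosen with earlier results of these data known. Genes named outside the members followed a fixed rule: the extremes of each list, list genes whose unadjusted p was 0.01 or less, the 12 genes nearest in profile and the defining markers. Others, such as Reln, Nr4a2, Calb2, Ddc, Gch1, Ngfr, Gad1, Slc6a3, Slc17a6 and Vwc2l, were picked out after their values were seen. The listed symbols Lbhd2 and Drd1 were found as A230065H16Rik and Drd1a through RefSeq synonyms.

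KD was compared with CD in edgeR 4.0.16 (R 4.3.3): filterByExpr, TMM, estimateDisp, glmQLFit with robust=TRUE and glmQLFTest, without covariates, with Benjamini-Hochberg adjustment over 15881 genes. The procedure was tested on simulated data. Alternatives were other scalings and filters, DESeq2 1.42.0, the likelihood-ratio test, a replicate block and leaving out libraries. Levels by library are CPM, and ratios used a pseudocount of 0.1 CPM. Coordinates come from GENCODE M21, which uses the mm10 assembly. Nothing says whether tissue was dissected in batches. Intervals and floors cover counting error only. Some listed genes entered the list counts but are not reported here by name. Protein sequences were not used here.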

Additional observations from a re-analysis of the deposited data

Results flagged for a closer look

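In the 4 CD libraries, 24 values (the log2(CPM + 0.1) of each member and the log2 summed CPM of each gene list) were searched for 1 library lying far away. The measure was the gap to its nearest neighbour as a share of the whole CD range, with Dixon's limit of 0.829. In all, 5 were set apart, all in CD replicate 4 and not independent of each other. They were Th (3.42, with 0.56 to 0.92 in CD replicates 1 to 3 and a share of 0.872), Sp8 (3.37 against 1.07 to 1.23, 0.931), the sum of the 9 members (6.61 against 4.22 to 4.40, 0.925), the sum of the thalamic and diencephalic genes (7.58 against 5.75 to 5.95, 0.888) and, as a low value, the sum of the neocortical excitatory neuron genes (9.76 against 10.2, 0.845). The thalamic and diencephalic sum came mostly from 1 gene, Slc17a6, with 167 of the 191 CPM in CD replicate 4. The neocortical sum was low although 2 of its 13 genes, Neurod6 and Fezf2, had their highest level in that library. The members were chosen with CD replicate 4 known to be high, so the 3 values of the members are descriptions and are left out of any tally. Of the 14 sums over the other lists, 2 were set apart. Chance would set apart about 0.7 of 14 independent sums over lists chosen blind. These lists share genes and libraries and were drawn up with earlier results known, so the 2 cannot be set against that rate.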

How the results depend on the processing

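With a raw p of at most 0.01, 51 genes were called (24 higher and 27 lower in KD, 17 and 30 with library size alone). The number was 120 with DESeq2, 103 with the likelihood-ratio test (where 1 gene also passed the adjusted threshold) and 182 with the replicate block, and when 1 library was left out it lay between 19 and 211, the lowest without CD replicate 1 and the highest without CD replicate 3. Members at that p numbered 1, but 0 with at least 1 CPM in 3 libraries, 2 with the likelihood-ratio test, 0 to 1 when 1 library was left out (0 without CD replicate 2, CD replicate 4 or any KD replicate), and 0 when both CD replicate 4 and KD replicate 3 were left out, a setting added after seeing the data. The members' median of -1.53 became -0.15 with the replicate block and -0.42 without both libraries, and ran from -1.87 to -0.13 when 1 was left out. The other bulb genes' median of 0.14 ran from -0.039 (without KD replicate 3) to 0.25 when 1 was left out, and their calls, 0 at first, were 1 without a filter, 1 with DESeq2, 1 without both libraries and 0 to 1 when 1 was left out. Members whose ranges did not overlap numbered 2 to 4 (4 without KD replicate 3, where 10.9% of all tested genes did not overlap in either direction, against 4.2% with all libraries). The median log2 ratio of CD replicate 4 (2.67) was 1.86 with a pseudocount of 1 CPM and 1.58 against the highest other library, where Barhl2 had -2.48. When 1 library was left out, Cdhr1 ran from -2.59 to 1.39, Sp8 from -1.11 to 0.13 and Pax6 from -0.20 to 0.071, positive without CD replicate 4 and, for Pax6, also without KD replicate 2 (0.019). Th (from -2.34 to -0.86), Shisa3 (from -2.22 to -1.24) and Doc2g (from -1.82 to -0.33) were negative under all 16 settings.

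Deviations of same-numbered libraries from their group means correlated at 0.251, 0.195 and 0.098. Differently numbered libraries were not compared in this way, so these values cannot tell whether the replicate numbers pair the libraries. The main fit treated them as unpaired. The replicate block uses only replicates 1 to 3, and so leaves out CD replicate 4. With it Cdhr1 (0.90), Sp8 (0.090) and Pax6 (0.064) turned positive. Beyond the libraries left out, the cause was not tested. Counts of 0 to 10 limit what can be said of Eomes, Tbx21 and Barhl2 in most libraries.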

Other observations

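S100a5, a calcium-binding protein of olfactory sensory neurons that was looked up after the values of Omp were seen, had 0.142, 0.0334, 0.702 and 7.48 CPM in CD and 0 counts in all 3 KD libraries, from 5, 1, 23 and 274 counts in CD. CD replicate 3 was second to CD replicate 4 in S100a5, Omp and Eomes alike, with 23, 25 and 30 counts. The 1122 odorant receptor genes in the files summed to 15.1 CPM in CD replicate 4, within the 13.3 to 24.5 CPM of the other libraries, and were highest in KD replicate 1. Zic1, a zinc finger transcription factor in the ventral forebrain list, was 2.61-fold above the next library in CD replicate 4, whereas Lhx8, Gbx1, Chat and Slc5a7 of the same list had log2 ratios from -0.68 to 0.18 there.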
